A study of Mus musculus with 12 samples.

Results

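The mitotic spindle and kinetochore genes described here are 48 named genes whose products carry a cell through mitosis: entry kinases and cyclins, chromosome condensation factors, the chromosomal passenger complex, spindle checkpoint proteins, kinetochore subunits, spindle motors, cytokinesis factors and the proteins of anaphase onset. They were chosen by gene symbol from a table of 55415 entries. All 48 symbols were found once each, and all 48 were among the 13668 genes that passed the filter on low values (at least 1 FPKM in at least 3 libraries). FPKM is the authors' level: counts scaled to exonic gene length and to the library's total. Gene positions are given on build mm39, as in the deposited table, and promoter sequences on GRCm38.p6.

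Mitosis separates the copied chromosomes into daughter cells. Cyclin B with the kinase CDK1 starts it, kinetochores built on the centromeres attach chromosomes to spindle microtubules, and the spindle checkpoint holds back the anaphase promoting complex until all are attached. The RNA of most of these genes peaks in G2 and mitosis. In bulk tumour RNA their level is therefore widely used as a measure of how many cells are dividing. Fewer cells in G2 and mitosis and less of the RNA per such cell cannot be told apart in bulk samples.

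RNA was sequenced from tumours of CT26, a mouse colon carcinoma line, in 4 groups of 3 libraries: mice given Complex 1 and radiation (the combination), mice given radiation, mice given Complex 1, and an untreated control group. By the series title Complex 1 is a platinum complex that X-rays activate. The labels give no dose, time, mouse strain or age, nor whether a tumour lay in the irradiated field. Whether replicate libraries stand for different mice is not stated either, so p-values measure the spread between libraries, which may in part be technical.

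Total counts per library ran from 15601468 to 19112042, and the members' counts from 322 to 12881 per gene and library, so even the lowest member was well counted. Of 8 epithelial markers, Krt18 reached 2.81 to 7.72 FPKM and Cdh1 at most 1.05 FPKM. Krt8, Krt19, Krt7, Epcam, Cldn4 and Cldn7 stayed below 1 FPKM in every library, and Cldn4 was listed at 0 in 10 of the 12, so most defining markers of a carcinoma were at or near 0 in these tumours. Radiation replicate 2 stood apart from its group in the mitotic genes: it was the highest of the 3 radiation libraries in 44 of the 48, while control replicate 3 was the highest control library in 37. Radiation replicate 2 had a level of Ccng1, a p53 target gene, of 78.9 FPKM, against 71.7 and 67.9 FPKM in the other radiation libraries and 27.4 to 30.2 FPKM in control libraries. The main counts and medians that rest on the radiation group are given with and without it.

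Mitotic genes were lower in irradiated tumours. With the 6 irradiated libraries (combination and radiation) set against the 6 unirradiated ones (Complex 1 and control), 44 of the 48 fell and none rose (edgeR quasi-likelihood test, Benjamini-Hochberg adjusted over all 13668 tested genes, threshold 0.05). Of all tested genes, 13.2% were lower and 13.3% higher by the same test. The median log2 change of the 48 was -0.39, which is a reduction by 23.6% at the median, beside a median of -0.01 over all tested genes. The exceptions were Pttg1, Bub3, Kif20a and Ckap2. In 29 members every irradiated library lay below every unirradiated one, as in 3.97% of all tested genes; without radiation replicate 2 this held in 43 members and 5.77% of tested genes. These 44 genes were called in each of the 21 alternatives tried for this comparison, among them the run without radiation replicate 2 (45 called, median -0.42). In that run the 8 role groups had medians from -0.49 (checkpoint) to -0.34 (anaphase onset), with the same counts of called genes except for 1 more in cytokinesis. Together the 48 genes took up 0.526% ± 0.0236 of all counts in combination libraries, 0.586% ± 0.0544 in radiation libraries, 0.718% ± 0.0153 in Complex 1 libraries and 0.711% ± 0.0427 in control libraries (SD, n = 3 each).

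**Figure D1:**
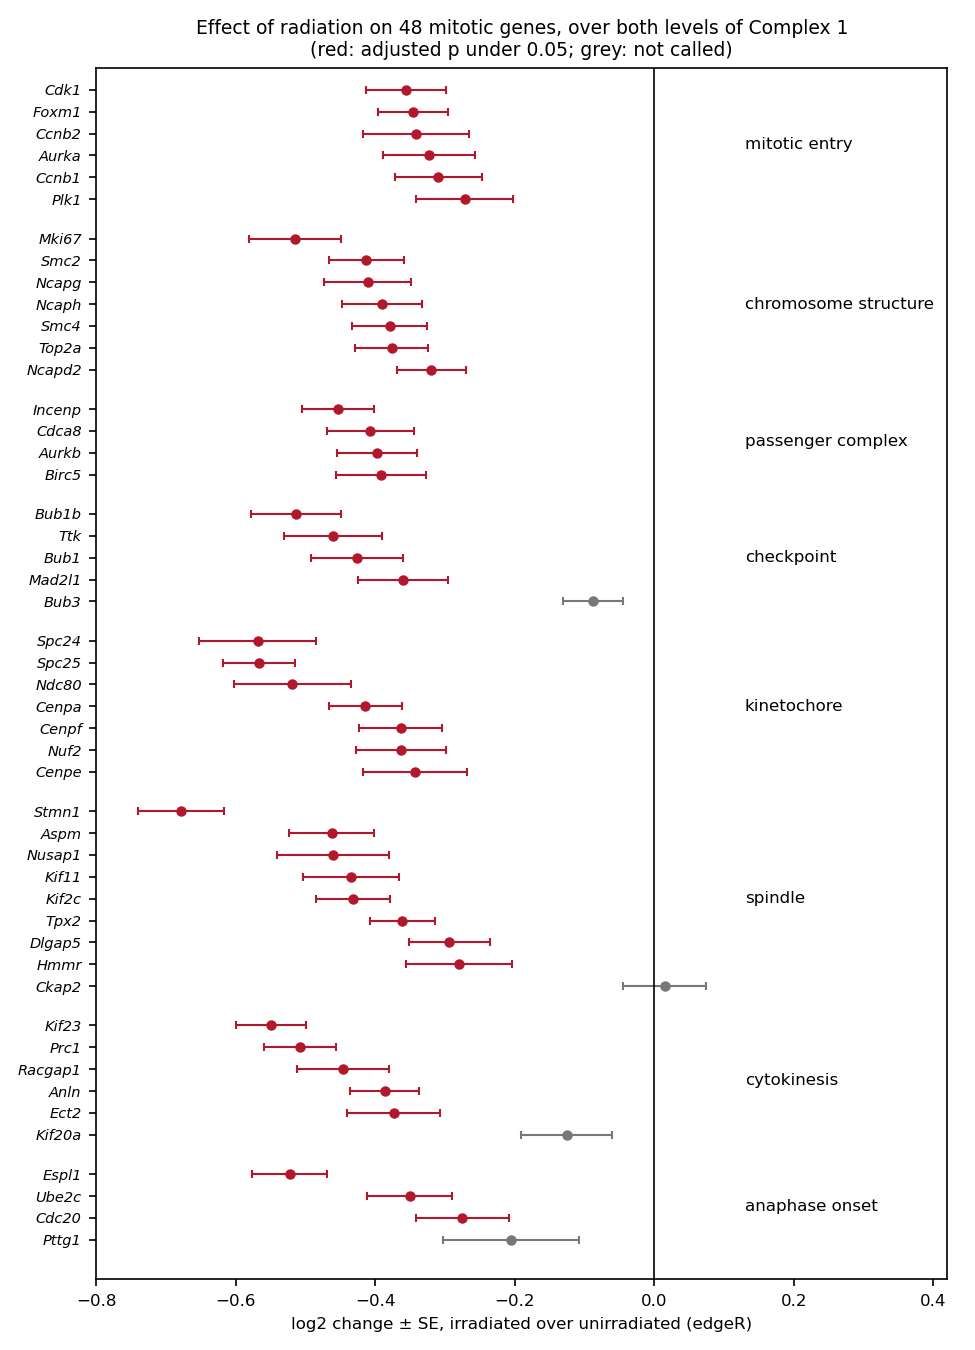
Log2 change with its standard error for each of the 48 mitotic genes (rows, grouped by role), 6 irradiated over 6 unirradiated libraries, from edgeR. The 44 red points passed the test and lie between -0.68 (Stmn1) and -0.27 (Plk1), and the 4 grey points did not pass.

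Library means showed the same split. The mean log2 CPM (counts scaled to the library total with TMM factors) of the 48 genes minus their control mean was -0.50, -0.39 and -0.52 in combination libraries, -0.42, -0.16 and -0.35 in radiation libraries, -0.03, -0.01 and 0.04 in Complex 1 libraries and -0.07, -0.01 and 0.09 in control libraries. The irradiated libraries lay below the unirradiated ones without overlap, and radiation replicate 2 came nearest to them. Between genes of the set, the size of the change was only loosely related to level or length (Spearman's rho 0.269 with mean FPKM and -0.196 with exonic length, across 48 genes that share their libraries).

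**Figure D2:**
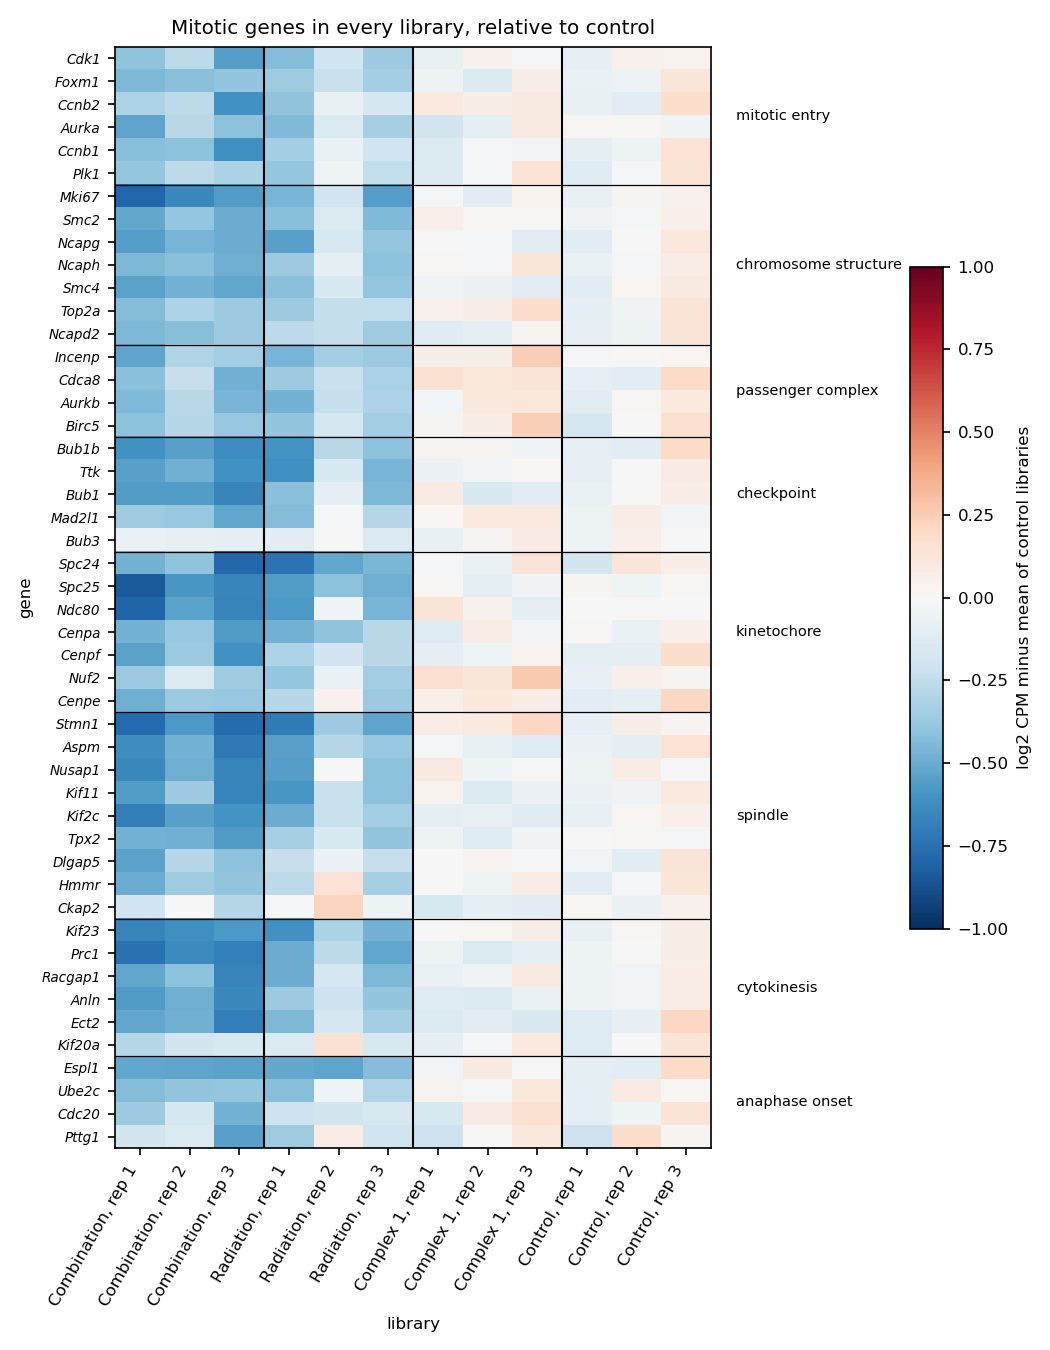
Each cell is the log2 CPM of 1 mitotic gene (rows, by role) in 1 library (columns, by group) minus that gene's mean in the 3 control libraries; blue is lower and red higher. The combination and radiation columns are mostly blue, radiation replicate 2 is the palest of the irradiated columns, and the rows of Ckap2, Kif20a and Bub3 show no such block of blue.

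Leukocyte and macrophage markers were higher in irradiated tumours, and other host cell markers varied in their own ways. The summed level of 4 leukocyte markers ran from 139 to 160 FPKM in combination, 116 to 131 in radiation, 88.9 to 118 in Complex 1 and 72.8 to 76.0 in control libraries, and 3 of the 4 rose with radiation over both levels of the compound (edgeR). Macrophage markers summed to 1898 to 2011, 1890 to 2046, 1226 to 1370 and 879 to 1047 FPKM in the same order of groups, with 5 of 6 higher. With all libraries, 13.3% of all tested genes were higher by that test, to be set beside each marker count for radiation in this paragraph. In every Complex 1 library the leukocyte sum was above that of every control library. Neutrophil markers summed to 241 to 401, 8.90 to 33.1, 87.2 to 192 and 10.3 to 18.2 FPKM, again in that order, with 2 of 4 higher with radiation and 4 of 4 higher in combination than in radiation tumours. In combination against radiation 0.615% of all tested genes were higher (edgeR). T and NK cell markers summed to 31.9 to 41.1 FPKM in combination, 10.8 to 34.4 FPKM in Complex 1 and 13.0 to 15.1 FPKM in control libraries (2 of 5 tested genes higher with radiation). In radiation replicate 2, the library with the highest mitotic levels of its group, they summed to 10.0 FPKM, against 31.8 and 32.1 in the other radiation libraries. Without that library 4 of 5 T and NK cell genes, 4 of 4 neutrophil genes and 4 of 4 leukocyte genes were higher with radiation (edgeR). Ms4a1, a B cell marker, was at most 0.28 FPKM and at 0 in 4 libraries. Of 5 fibroblast genes 1 rose with radiation (Dcn), and of 4 endothelial genes 0 passed by edgeR (1, Kdr, at an unadjusted p under 0.05). Krt18, the 1 epithelial marker tested, changed by log2 -0.87 ± 0.27 in combination against control (adjusted p = 0.038, edgeR). Its radiation effect over both levels of the compound was -0.55 ± 0.19 and did not pass (adjusted p = 0.052, edgeR). It did not pass in radiation or Complex 1 against control either (-0.65 and -0.41, adjusted p = 0.13 and 0.57, edgeR). The part of these shifts in cell makeup in the lower mitotic levels was not tested.

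Genes of this kind are known to share promoter elements: the CHR (cell cycle genes homology region), which the MuvB complexes of DREAM, B-MYB and FOXM1 bind, and CCAAT boxes, which NF-Y binds. RefSeq start sites (GRCm38.p6) were matched for 39 of the 48 members, with 42 windows of 250 bases before to 50 after a start. The letters TTTGAA of the CHR occurred on either strand in 33 of the 42 windows (78.6%), against 17.9% of 32851 windows of all genes. CCAAT on either strand also occurred in 33 (78.6%), against 37.4% of all. Both were present in 30 (71.4%), against 6.95%. A match is a run of letters and not a shown binding site. Bub3 and Ckap2, which did not pass with radiation, held both motifs. Neither motif occurred for Ncaph, Birc5, Nusap1, Nuf2 and Mad2l1, which fell, or for Pttg1, which did not pass. A relation of the motifs to the size of the change was not tested. The members with the smallest p among those holding both motifs are shown from 150 bases before to 30 after the start, 5′ to 3′. They were picked by that p and stand as examples only. Capitals mark CHR and CCAAT matches (ATTGG is CCAAT on the other strand, and the motifs do not overlap):
Spc25, chr2:69206184-69206363, minus strand: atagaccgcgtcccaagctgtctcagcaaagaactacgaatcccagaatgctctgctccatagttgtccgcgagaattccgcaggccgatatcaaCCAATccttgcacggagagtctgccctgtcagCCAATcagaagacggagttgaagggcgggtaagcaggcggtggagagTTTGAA
Kif23, chr9:61946770-61946949, minus strand: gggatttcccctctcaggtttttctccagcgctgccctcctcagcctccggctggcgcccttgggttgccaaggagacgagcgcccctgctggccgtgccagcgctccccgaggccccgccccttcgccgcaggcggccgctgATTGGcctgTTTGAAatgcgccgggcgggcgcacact
Prc1, chr7:80294326-80294505, plus strand: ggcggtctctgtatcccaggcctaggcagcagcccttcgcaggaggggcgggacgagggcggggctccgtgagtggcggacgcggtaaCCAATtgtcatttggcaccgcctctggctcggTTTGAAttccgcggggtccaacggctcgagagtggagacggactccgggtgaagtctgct
Espl1, chr15:102296143-102296322, plus strand: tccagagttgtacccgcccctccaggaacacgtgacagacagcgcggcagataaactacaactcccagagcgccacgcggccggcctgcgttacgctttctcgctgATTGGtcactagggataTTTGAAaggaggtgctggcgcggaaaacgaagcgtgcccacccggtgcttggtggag
In Spc25 the CHR letters began 25 bases after the start, downstream of CCAAT boxes at -55 and -23. Kif23 had its CHR match at position 3, with CCAAT at -7. Prc1 had CHR letters at -30 and CCAAT at -62, and Espl1 had them at -27 and -44.

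Mitotic entry genes all fell with radiation (6 of 6, median log2 -0.33). Cdk1, the kinase that cyclin B activates, had 18.8, 20.96 and 17.2 FPKM in combination tumours, 18.3, 21.6 and 19.3 in radiation tumours, 23.4, 25.8 and 24.2 in Complex 1 tumours and 22.97, 24.9 and 25.04 in control tumours. Its 6 irradiated libraries all lay below its 6 unirradiated ones, and the log2 change was -0.36 ± 0.06, adjusted p = 0.00071 (edgeR; chromosome 10, 69170976 to 69188768, mm39). Foxm1, a transcription factor that drives G2 and M phase genes, had 39.1, 40.2 and 40.8 FPKM in combination tumours, 41.3, 45.4 and 41.8 in radiation tumours, 50.8, 48.8 and 54.9 in Complex 1 tumours and 49.5, 49.8 and 56.5 in control tumours. These groups did not overlap either, and Foxm1 fell by 0.35 on the log2 scale (edgeR, adjusted p = 0.0004). Ccnb1, a B-type cyclin, had 22.6, 23.04 and 19.9 FPKM in combination tumours, 23.7, 28.8 and 26.2 in radiation tumours, 26.99, 30.2 and 29.2 in Complex 1 tumours and 27.6, 28.4 and 32.7 in control tumours. Here radiation replicate 2 lay inside the unirradiated range, and the change was -0.31 ± 0.06, adjusted p = 0.0029 (edgeR). Plk1, a kinase of centrosomes, kinetochores and mitotic entry, had 25.7, 28.2 and 27.1 FPKM in combination tumours, 25.3, 32.3 and 28.04 in radiation tumours, 30.04, 33.3 and 36.5 in Complex 1 tumours and 29.9, 32.1 and 36.0 in control tumours; the groups overlapped, and its change of -0.27 ± 0.07, adjusted p = 0.012 (edgeR) was the smallest of the called members. Ccnb2 (log2 -0.34), the other B-type cyclin, and Aurka (-0.32), the kinase of spindle poles, also fell. Of the 31-base stretches of Ccnb1 and Plk1 transcripts, 27.8% and 18.7% are shared with other loci, which makes these counts less certain.

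All 7 chromosome structure genes fell (median -0.39). Mki67, the Ki-67 gene whose protein coats mitotic chromosomes, had 38.96, 43.8 and 46.3 FPKM in combination tumours, 48.5, 58.8 and 45.7 in radiation tumours, 66.02, 63.03 and 68.2 in Complex 1 tumours and 62.7, 66.99 and 68.03 in control tumours. The combination and radiation libraries were all below the others, radiation replicate 2 being the highest of them, and the log2 change was -0.52 ± 0.07, adjusted p = 0.00018 (edgeR; chromosome 7, 135291513 to 135318090). Smc2, an ATPase core subunit of condensin, the complex that compacts chromosomes, had 19.5, 21.5 and 19.9 FPKM in combination tumours, 20.6, 25.04 and 20.3 in radiation tumours, 28.5, 28.4 and 27.7 in Complex 1 tumours and 26.5, 26.7 and 28.2 in control tumours. Again the irradiated libraries lay below all others (log2 -0.41 ± 0.05, adjusted p = 0.00022, edgeR). Its partner Smc4 changed by -0.38, and the subunits of condensin I, Ncapd2, Ncapg and Ncaph, by -0.32, -0.41 and -0.39. Top2a, the topoisomerase that untangles sister DNA, changed by -0.38. The 5 condensin genes thus lay between -0.41 and -0.32, with standard errors of 0.05 to 0.06.

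All 4 genes of the chromosomal passenger complex fell (median -0.40). This complex of Aurora B kinase with inner centromere protein, survivin and borealin corrects wrong attachments and later directs cytokinesis. Incenp, its scaffold, had 18.6, 21.96 and 21.3 FPKM in combination tumours, 19.2, 21.1 and 20.5 in radiation tumours, 27.7, 28.01 and 31.4 in Complex 1 tumours and 25.9, 25.9 and 26.6 in control tumours. No irradiated library reached an unirradiated one, and the change was -0.45 ± 0.05, adjusted p = 9.0e-05 (edgeR). Aurkb, the kinase, had 24.5, 27.6 and 24.2 FPKM in combination tumours, 23.7, 28.2 and 26.5 in radiation tumours, 32.2, 36.1 and 35.1 in Complex 1 tumours and 29.9, 32.5 and 34.8 in control tumours. The same separation held for it (-0.40 ± 0.06, adjusted p = 0.00037, edgeR). Birc5, the survivin gene, changed by -0.39 and Cdca8, the borealin gene, by -0.41, so the complex moved within a narrow range of -0.45 to -0.39.

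Among 5 spindle checkpoint genes, 4 fell and Bub3 did not pass. Bub1b, which encodes the BubR1 inhibitor of Cdc20, had 15.2, 16.04 and 15.1 FPKM in combination tumours, 15.1, 19.01 and 17.2 in radiation tumours, 23.2, 23.7 and 22.2 in Complex 1 tumours and 21.2, 20.8 and 25.9 in control tumours. All irradiated libraries lay below the others (-0.51 ± 0.06, adjusted p = 0.00016, edgeR). Ttk, the Mps1 kinase gene at the head of checkpoint signalling, had 6.43, 6.75 and 6.20 FPKM in combination tumours, 6.06, 8.33 and 6.72 in radiation tumours, 8.86, 9.23 and 9.35 in Complex 1 tumours and 8.61, 9.04 and 9.68 in control tumours. Radiation replicate 2 was close to the lowest control library, still below it, and the change was -0.46 ± 0.07, adjusted p = 0.00052 (edgeR). Bub3, a small adaptor that brings Bub1 and BubR1 to kinetochores, had 12.7, 12.7 and 12.6 FPKM in combination tumours, 12.2, 13.2 and 11.97 in radiation tumours, 12.5, 13.7 and 13.8 in Complex 1 tumours and 12.5, 13.3 and 13.1 in control tumours. Its groups overlapped throughout, with a change of -0.09 ± 0.04, adjusted p = 0.15 (edgeR). The kinase gene Bub1 changed by -0.43 and Mad2l1, the Mad2 gene, by -0.36.

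Kinetochore genes fell in all 7 cases (median -0.41). Spc25, a subunit of the Ndc80 complex that holds microtubules, had 10.8, 13.1 and 12.4 FPKM in combination tumours, 13.1, 14.5 and 13.7 in radiation tumours, 19.2, 18.2 and 18.7 in Complex 1 tumours and 19.2, 18.2 and 19.2 in control tumours. The gap between the irradiated and unirradiated libraries was wide, and the change was -0.57 ± 0.05, adjusted p = 2.7e-05 (edgeR; chromosome 2, 69024239 to 69036538). Its complex partners Spc24, Ndc80 and Nuf2 changed by -0.57 ± 0.08, -0.52 ± 0.08 and -0.36 ± 0.07. Cenpa, the histone H3 variant that marks the centromere, had 14.7, 15.8 and 13.9 FPKM in combination tumours, 14.5, 15.3 and 16.7 in radiation tumours, 18.4, 21.6 and 19.7 in Complex 1 tumours and 19.98, 18.9 and 20.7 in control tumours. It did not overlap between irradiated and unirradiated tumours (-0.41 ± 0.05, adjusted p = 0.00018, edgeR). Cenpe, a kinetochore kinesin, changed by -0.34 and Cenpf, a large outer kinetochore protein gene, by -0.36.

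Spindle genes held both the most lowered member and the member with no lowering. Of 9, 8 fell (median -0.43). Stmn1, which encodes stathmin, a protein that destabilises microtubules, had 41.8, 48.7 and 42.4 FPKM in combination tumours, 43.6, 55.4 and 49.2 in radiation tumours, 74.5, 77.04 and 81.4 in Complex 1 tumours and 65.8, 72.4 and 71.5 in control tumours. It had the highest mean of the members over the 6 unirradiated libraries, although Smc4 averaged slightly more in control tumours, and was 37.5% lower in irradiated ones (log2 -0.68 ± 0.06, adjusted p = 2.7e-05, edgeR; chromosome 4, 134195631 to 134201154), with 22.4% of its 31-base stretches shared with other loci. Kif2c, the MCAK motor gene that takes microtubule ends apart, had 9.32, 10.4 and 10.01 FPKM in combination tumours, 10.6, 12.8 and 11.7 in radiation tumours, 13.9, 14.4 and 13.6 in Complex 1 tumours and 13.9, 14.8 and 15.3 in control tumours. Its combination and radiation libraries were below all others (-0.43 ± 0.05, adjusted p = 0.00015, edgeR). Ckap2, which encodes a protein of spindle poles and microtubules, had 36.9, 42.5 and 34.9 FPKM in combination tumours, 41.3, 48.9 and 40.2 in radiation tumours, 37.1, 39.6 and 38.2 in Complex 1 tumours and 41.5, 39.1 and 42.4 in control tumours. Here radiation replicate 2 was the highest of all 12 libraries, and the change was 0.01 ± 0.06, adjusted p = 0.88 (edgeR). Without radiation replicate 2, control replicate 2 or combination replicate 2 the sign of that value turned. The others changed by -0.46 (Aspm, a spindle pole protein gene), -0.46 (Nusap1), -0.43 (Kif11, the motor that pushes spindle poles apart), -0.36 (Tpx2, the activator of Aurora A), -0.29 (Dlgap5) and -0.28 (Hmmr).

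Cytokinesis genes fell in 5 of 6 cases. Kif23, the motor of the centralspindlin complex at the midzone, had 9.96, 10.4 and 10.7 FPKM in combination tumours, 10.3, 12.6 and 11.3 in radiation tumours, 15.6, 16.1 and 16.2 in Complex 1 tumours and 14.6, 15.5 and 16.1 in control tumours. All 6 irradiated libraries lay under the unirradiated ones (-0.55 ± 0.05, adjusted p = 2.8e-05, edgeR; chromosome 9, 61823187 to 61854056). Prc1, which bundles midzone microtubules, had 13.4, 14.6 and 14.1 FPKM in combination tumours, 15.7, 18.6 and 15.5 in radiation tumours, 21.4, 20.4 and 20.7 in Complex 1 tumours and 21.1, 21.7 and 22.8 in control tumours. The combination libraries were lowest, and the change was -0.51 ± 0.05, adjusted p = 4.8e-05 (edgeR). Kif20a, a midzone kinesin that brings the passenger complex to the spindle centre, had 36.6, 39.6 and 40.4 FPKM in combination tumours, 40.01, 49.5 and 39.6 in radiation tumours, 41.4, 44.3 and 47.05 in Complex 1 tumours and 39.6, 43.5 and 47.6 in control tumours. Radiation replicate 2 was the highest of all 12 libraries, and Kif20a did not pass (log2 -0.13 ± 0.07, adjusted p = 0.18, edgeR; 26.7% of its sequence is shared). Without that library it passed (log2 -0.18, adjusted p = 0.034, edgeR). Racgap1, the partner of Kif23, changed by -0.45, Anln, the anillin scaffold gene of the contractile ring, by -0.39 and Ect2, the activator of RhoA at the cleavage furrow, by -0.37.

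At anaphase onset, 3 of 4 genes fell. Espl1, the separase gene whose protease opens the cohesin ring, had 10.3, 10.4 and 10.3 FPKM in combination tumours, 10.2, 10.2 and 10.8 in radiation tumours, 14.3, 15.8 and 14.6 in Complex 1 tumours and 13.5, 13.3 and 16.6 in control tumours. The combination and radiation libraries lay close together, from 10.2 to 10.8 FPKM, and below all others (-0.52 ± 0.05, adjusted p = 5.6e-05, edgeR; chromosome 15, 102204701 to 102232792). Ube2c, the ubiquitin-conjugating enzyme gene of the anaphase promoting complex, had 46.02, 47.95 and 48.1 FPKM in combination tumours, 45.9, 60.1 and 50.2 in radiation tumours, 63.1, 62.2 and 66.2 in Complex 1 tumours and 56.8, 64.1 and 61.3 in control tumours. Radiation replicate 2 lay within the control range, and the change was -0.35 ± 0.06, adjusted p = 0.0012 (edgeR; 25.3% of its sequence is shared). Cdc20, the activator of that complex, changed by -0.28 ± 0.07, adjusted p = 0.009 (edgeR; 26.7% shared). Pttg1, the securin gene that holds separase in check, averaged 18.2 ± 2.60 FPKM in combination, 19.7 ± 3.05 in radiation, 21.4 ± 2.33 in Complex 1 and 21.5 ± 2.77 in control tumours (SD, n = 3 each) and did not pass (-0.21 ± 0.10, adjusted p = 0.14, edgeR).

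**Figure D3:**
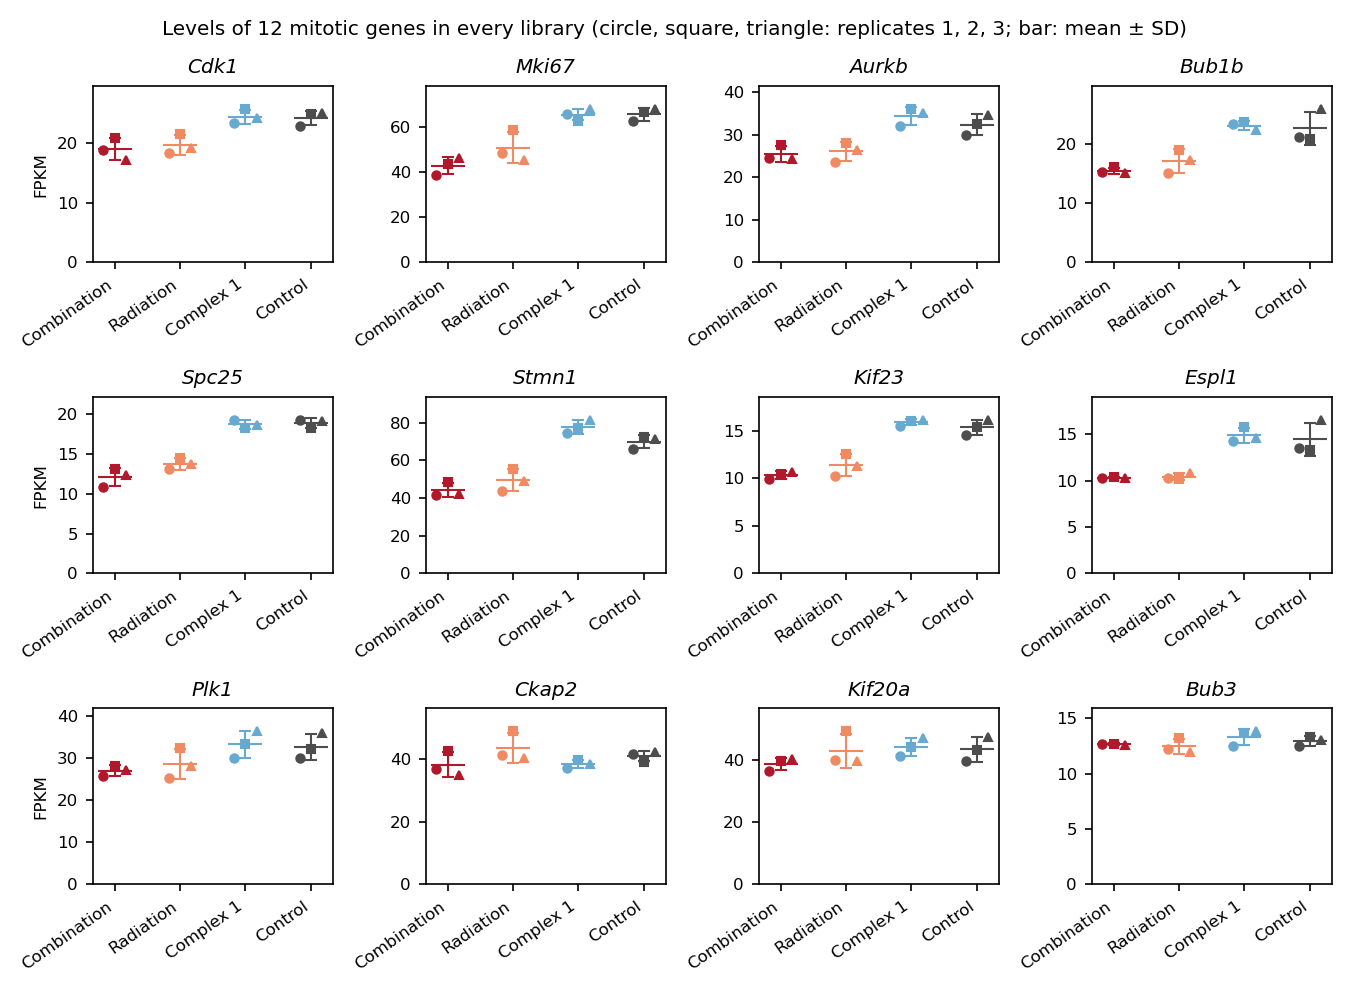
FPKM of 12 mitotic genes in each library (symbols for replicates 1 to 3) with the mean and SD of each group, on axes that start at 0. In the upper 8 genes the combination and radiation libraries sit below the Complex 1 and control libraries, while in Plk1, Ckap2, Kif20a and Bub3 the groups overlap.

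Radiation without the compound, against control, lowered 31 of the 48 genes and raised none (edgeR), where 5.85% of all tested genes were lower and 7.39% higher by the same test. At an unadjusted p under 0.05 stood 39 members (81.2%), beside 28.4% of tested genes. The median log2 change was -0.31, and 47 of 48 values were negative. In 31 members all 3 radiation libraries lay below all 3 control libraries, as in 12% of tested genes; without radiation replicate 2 the number was 45, beside 18.2% of tested genes. All of the chromosome structure (7) and passenger complex (4) genes passed, and 5 of 6 cytokinesis genes, but 3 of 6 entry genes, 3 of 7 kinetochore genes and 1 of 4 anaphase genes did. The largest changes were in Spc24 (-0.57 ± 0.12, adjusted p = 0.0086), Stmn1 (-0.53 ± 0.09, adjusted p = 0.0028) and Espl1 (-0.50 ± 0.08, adjusted p = 0.0021; edgeR). Mki67 averaged 51.02 ± 6.90 FPKM in radiation tumours and 65.9 ± 2.85 FPKM in control tumours (SD, n = 3 each; log2 -0.40 ± 0.09, adjusted p = 0.015, edgeR). Ccnb1 (-0.20), Plk1 (-0.22) and Cdc20 (-0.19) did not pass. The count rested on single libraries: it was 10 without radiation replicate 1, 14 without radiation replicate 3, 17 without control replicate 3 and 19 without control replicate 2, with medians of -0.27, -0.28, -0.28 and -0.31. Without radiation replicate 2 it was 38 with a median of -0.39. In that run 689 of 13668 tested genes were lower and 989 higher, beside 800 and 1010 with all libraries. Radiation replicate 2 was within or above the control range in 17 members, radiation replicate 1 in 2 and radiation replicate 3 in 3. Fitted with the radiation and control groups alone, 18 passed. With library totals as the only scaling the tested genes split into 576 lower and 1163 higher, beside 800 and 1010 with TMM scaling, and 25 members passed.

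Nearly all mitotic genes were lower in combination tumours than in control tumours: 44 of 48 fell and none rose (edgeR), where 10% of tested genes were lower and 11.9% higher. The median log2 change was -0.47, a median reduction by 27.7%, and all 48 values were negative. In 44 members the combination libraries lay below every control library, as in 14.1% of tested genes. Mki67 averaged 43.01 ± 3.73 FPKM in combination tumours and 65.9 ± 2.85 FPKM in control tumours (log2 -0.66 ± 0.09, adjusted p = 0.00043, edgeR). Stmn1 changed by -0.71, Spc25 by -0.69, Prc1 by -0.69 and Ndc80 by -0.67. Bub3 (-0.08), Ckap2 (-0.15), Kif20a (-0.21) and Pttg1 (-0.29) did not pass. Leaving out any 1 of the 12 libraries kept the count between 37 and 44. With library totals alone as scaling, 41 members passed, and all tested genes split into 888 lower and 1947 higher, beside 1372 and 1620.

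Radiation given with the compound, set against the compound alone, lowered 43 of 48 members and raised none (edgeR), where 5.25% of tested genes were lower and 4.73% higher. The median was -0.47; this comparison shares its combination libraries with the last one. In 44 members every combination library lay below every Complex 1 library, as in 14% of tested genes. The 5 that did not pass were Plk1, Bub3, Ckap2, Kif20a and Pttg1. Stmn1 averaged 44.3 ± 3.81 FPKM in combination tumours and 77.6 ± 3.46 FPKM in Complex 1 tumours (SD, n = 3 each; log2 -0.83 ± 0.09, adjusted p = 0.0005, edgeR). Kif23 changed by -0.64, Ndc80 by -0.70, Spc25 by -0.65 and Mki67 by -0.63. The count lay between 36 and 44 when any 1 library was left out.

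Complex 1 without radiation left no call among the mitotic genes. Against control, 0 of 48 passed edgeR's test, 0 had an unadjusted p under 0.05, and 0 passed with DESeq2 or limma, where 0.0951% of tested genes were lower, 0.717% were higher and 12.5% had an unadjusted p under 0.05. The log2 changes ran from -0.14 (Ect2) to 0.18 (Nuf2), with 25 below 0 and a median of -0.0022 (standard errors 0.06 to 0.14). Mki67 averaged 65.8 ± 2.60 FPKM in Complex 1 tumours and 65.9 ± 2.85 FPKM in control tumours, and Cdk1 averaged 24.5 ± 1.21 and 24.3 ± 1.17 FPKM in the same order (SD, n = 3 each). The 4 passenger complex genes were all above 0, at 0.06 to 0.12, and the 7 kinetochore genes lay on both sides of it. The Complex 1 libraries lay wholly below the control libraries in 2 members and wholly above in 3, as in 4.71% and 11.4% of tested genes, and the ranges overlapped in the other 43.

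**Figure D4:**
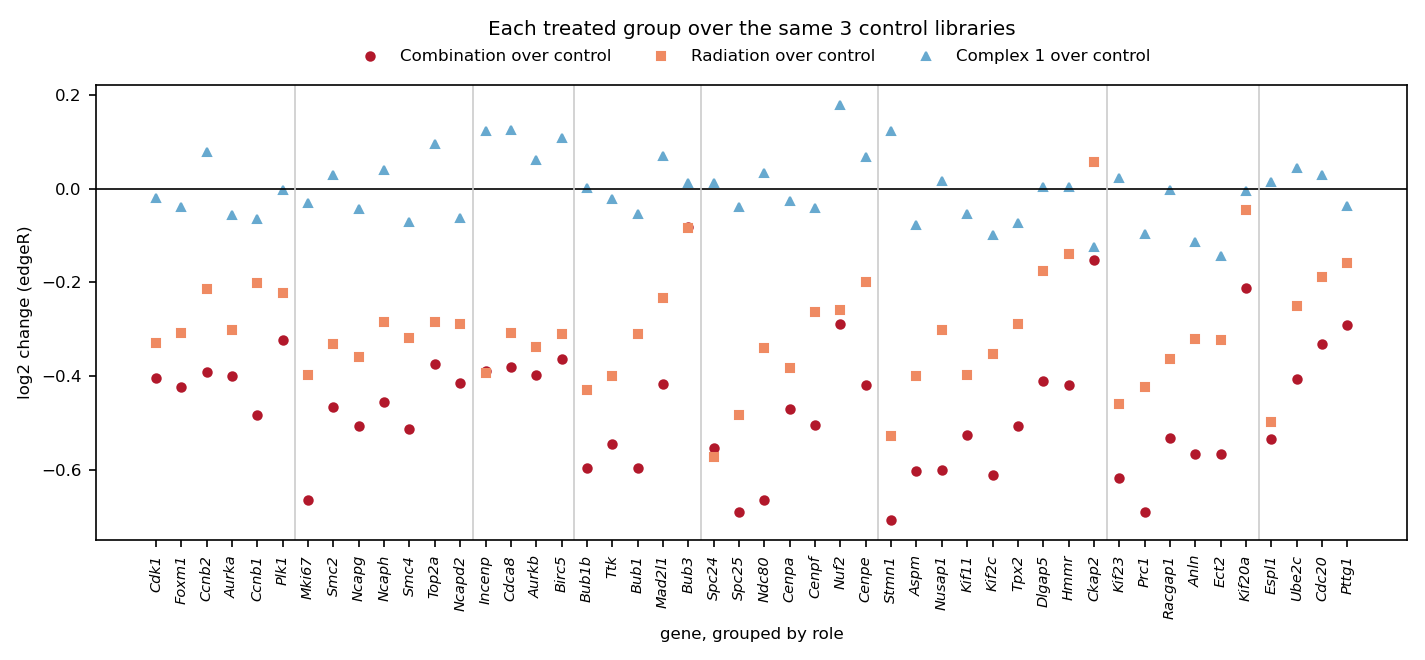
Log2 changes of the 48 mitotic genes (columns, grouped by role) in combination (circles), radiation (squares) and Complex 1 (triangles) tumours, each over the same 3 control libraries. Circles run from -0.71 to -0.08, squares from -0.57 to 0.06, and triangles lie around 0 from -0.14 to 0.18; the 3 sets share their controls.

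The compound added to radiation gave lower values for most mitotic genes, none of which passed the test. Combination against radiation had 45 of 48 values below 0 and a median of -0.17. By edgeR, DESeq2 and limma 0 passed (0.0366% of tested genes were lower and 0.615% higher by edgeR), while 18 (37.5%) had an unadjusted p under 0.05, beside 10.3% of tested genes. Prc1 averaged 14.02 ± 0.62 FPKM in combination tumours and 16.6 ± 1.72 FPKM in radiation tumours (SD, n = 3 each; log2 -0.27 ± 0.07, adjusted p = 0.18, edgeR), and Mki67 had a log2 difference of -0.27 ± 0.09, adjusted p = 0.34 (edgeR). The combination libraries lay below all radiation libraries in 11 members, as in 6.36% of tested genes, and the ranges overlapped in 37. This difference depended on radiation replicate 2. Without that library the median was -0.08, and 6 of 48 members had an unadjusted p under 0.05, beside 1037 of 13668 tested genes. Without radiation replicate 1 the median was -0.24. The interaction, which asks whether radiation changed a gene by another amount when the compound was given, passed for 0 of 48 members by edgeR, DESeq2 or limma (1 unadjusted p under 0.05, Stmn1, beside 4.4% of tested genes) and for 0% of tested genes by edgeR. Its median was -0.16, and -0.08 without radiation replicate 2. The compound's effect over both levels of radiation also had 0 calls by edgeR or limma (13 unadjusted p under 0.05, beside 17.7% of tested genes; median -0.08, and -0.04 with 8 such p without radiation replicate 2) and 2 by DESeq2, where 0.512% of tested genes were lower and 2.26% higher by edgeR.

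Other genes of the mitotic programme fell as well. Of 78 further mitotic genes, 70 fell and 1 rose in irradiated over unirradiated tumours (edgeR), with a median of -0.37. Of all tested genes, 13.2% were lower and 13.3% higher by that test. Without radiation replicate 2, 70 of the 78 fell and 0 rose, with a median of -0.39. Kntc1, a subunit of the kinetochore complex that brings dynein, had 6.48, 7.27 and 6.46 FPKM in combination tumours, 5.96, 7.29 and 6.88 in radiation tumours, 10.9, 10.7 and 9.67 in Complex 1 tumours and 10.2, 9.20 and 10.2 in control tumours. Its irradiated libraries lay far below the others (log2 -0.62 ± 0.06, adjusted p = 3.0e-05, edgeR). Cep55, a midbody protein gene, changed by -0.47 ± 0.05 and Sapcd2 by -0.60 ± 0.07. The gene that rose was Gtse1, a microtubule-binding protein gene that p53 also induces, with 22.4, 23.4 and 22.2 FPKM in combination tumours, 22.8, 24.4 and 23.2 in radiation tumours, 18.4, 21.2 and 21.6 in Complex 1 tumours and 21.2, 19.7 and 19.7 in control tumours (0.16 ± 0.05, adjusted p = 0.028, edgeR). Its irradiated libraries lay just above its unirradiated ones, but without radiation replicate 2 Gtse1 did not pass (0.15, adjusted p = 0.054, edgeR). In combination against radiation, 1 of the 78 passed, Mastl, the Greatwall kinase gene that keeps mitotic phosphatase activity low, with 8.90, 8.79 and 8.18 FPKM in combination tumours, 11.1, 13.3 and 10.6 in radiation tumours, 11.7, 12.1 and 11.99 in Complex 1 tumours and 12.5, 13.8 and 13.3 in control tumours (-0.45 ± 0.08, adjusted p = 0.022, edgeR; named after its values were seen). Its combination libraries did not overlap with any other group, but without radiation replicate 2 the difference from radiation tumours did not pass (-0.35, adjusted p = 0.064, edgeR).

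The core of the anaphase promoting complex had a median near 0. Of 15 subunit and activator genes, 2 fell and none rose with radiation, with a median of -0.03 (edgeR). Those 2 were Anapc5 (-0.18 ± 0.04) and Anapc11 (-0.23 ± 0.06), and a difference from the 48 genes was not tested. By the same test 13.2% of all tested genes were lower and 13.3% higher. These shares stand beside each count with all libraries in this paragraph, and the 2 of 15 lay near the first of them. S phase genes had 24 of 29 lower and none higher, with a median of -0.32 and Pola1 at -0.49, Rrm2 at -0.49 and Pcna at -0.39. Among 18 tested E2F and DREAM regulators, 9 fell and 1 rose. E2f7, a repressor of E2F targets, changed by -0.53 ± 0.05, Rbl1, the p107 gene, by -0.40 ± 0.06 and E2f8, a repressor related to E2f7, by -0.42 ± 0.07. The gene that rose, named for that after its values were seen, was Rbl2, the p130 pocket protein gene of DREAM in quiescent cells (0.26 ± 0.04). Of 10 tested G2 arrest and checkpoint genes, 4 rose and none fell. Those that rose were Ccng1 (1.24 ± 0.06), Cdkn1a, which encodes the p21 inhibitor of cyclin-dependent kinases (0.85 ± 0.09), Btg2 (0.56 ± 0.14) and Gtse1, the last with the reserve given above. Btg2 did not pass in radiation against control (0.37, adjusted p = 0.23, edgeR) and passed in combination against Complex 1 (0.74, adjusted p = 0.027, edgeR). The rest of the list went both ways without passing: Gadd45a (-0.59 ± 0.21, adjusted p = 0.051, edgeR), Sfn (-0.18), Ccnb1ip1 (-0.10), Plk2 (-0.07), Plk3 (0.17) and Gadd45b (0.27). Without radiation replicate 2, the S phase, E2F and DREAM, and anaphase promoting complex lists had the same counts, with medians of -0.34, -0.20 and -0.02.

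**Figure D5:**
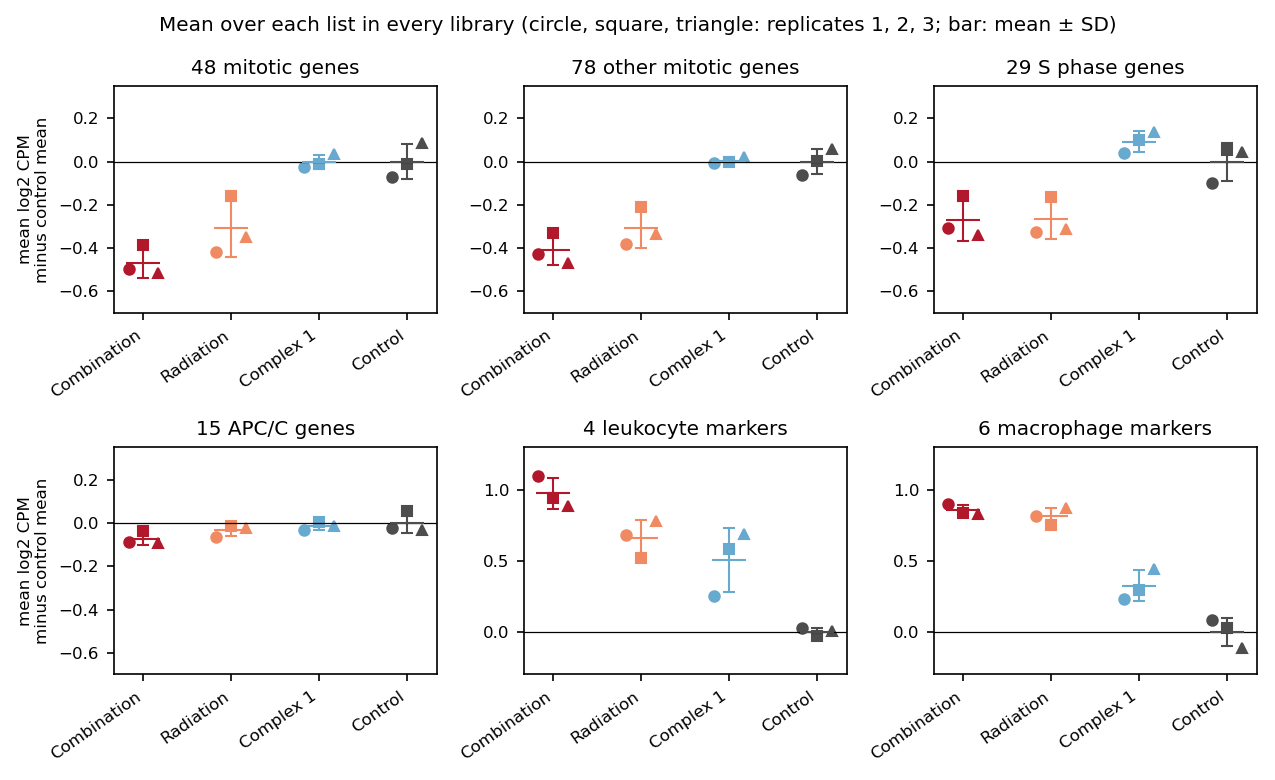
Mean log2 CPM of the genes of each list minus the control mean, in every library (symbols) with the group mean and SD, in log2 units. The mitotic and S phase lists are low in the 6 irradiated libraries, the 15 genes of the anaphase promoting complex stay within -0.09 to 0.05, and leukocyte and macrophage markers are high in every treated group; the vertical scales of the last 2 panels differ from the rest.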

How the data were processed

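Total RNA of 12 CT26 tumour samples was made into libraries with the NEB Next Ultra RNA kit, per the labels' protocols. STAR 2.5.3a, HTSeq 2.0.1, DESeq2 and build mm39 are named per the submitters' processing notes, with no role; for strand setting and annotation release the sources used here give nothing. The authors deposited raw read counts per gene with exonic gene lengths. The deposited FPKM values equal counts divided by exonic length and library total, within 0.005 when recomputed. FPKM gave levels only; tests used the counts.

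Entries without a symbol (1492, with 0.0579% to 0.0706% of counts) stayed out. Genes with at least 1 FPKM in at least 3 libraries were fitted together with edgeR 4.0.16 (TMM scaling, 1 mean per group, quasi-likelihood test), in R 4.3.3, with Benjamini-Hochberg adjustment over all 13668 genes at 0.05. The fit was tested on simulated counts. Alternatives used DESeq2 1.42.0, limma 3.58.1 on log2(FPKM + 1) or log2(FPKM + 0.1), other scalings, no filter, a replicate block and runs without each library. Replicate libraries differed by more than sampling noise (chi-square per degree of freedom 4.90 to 21.8), so none was counted as a copy. Values in every library are given for the 2 members of each role with the smallest p in the radiation effect, the 2 with the largest p, the 3 with the highest log2 change, and Mki67, Cdk1, Ccnb1, Plk1 and Aurkb; of other lists of mitotic and cell cycle genes the 3 at most with the smallest p are named, and beside them Gtse1, Rbl2 and Mastl, chosen after their values were seen. Sequence shared between loci was counted as 31-base stretches of GENCODE M21 transcripts. The members and lists were chosen with earlier results of these data known, so their direction is no independent evidence.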

Additional observations from a re-analysis of the deposited data

How the results depend on the processing

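The 44 members called lower with radiation over both levels of the compound were called in all 21 alternatives, and the count stayed at 44 to 45 (the added member was Kif20a without radiation replicate 2 and Pttg1 without the filter on low values). Against control, radiation gave 31 calls but 18 when only those groups were fitted, and between 10 (without radiation replicate 1) and 38 (without radiation replicate 2) when 1 library was left out; 10 members were called in every alternative, and the cause was not tested. Combination against control kept 37 to 46 calls, and 37 members were called in every alternative. Without a filter on low values, combination against radiation had 2 calls and the compound's effect over both levels of radiation had 3, where it had 2 with DESeq2, each against 0. Values near 0 turned sign: with 1 library left out Ckap2 ran from -0.0307 to 0.0491 in the radiation effect and from -0.0331 to 0.1109 in radiation against control, and Kif20a from -0.1542 to 0.0197 in the last. Same-numbered replicates did not deviate together (correlations -0.19 to 0.14, and 4 of 12 libraries correlated best with their own number). No pairing by number was seen, but 3 libraries per group could not exclude one. With a replicate block the calls were 32 for radiation against control and 44 for combination against control. They were 44 for combination against Complex 1, 44 for the radiation effect and 0 for the other comparisons. The lowest count of a member in any library was 322.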
